A study of Mus musculus with 6 samples.

Results

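Basement membrane laminins, collagen IV and perlecan were examined in CD45- cells sorted from RANK-/- and RANK+/+ MMTV-PyMT tumor transplants. The set held 9 genes, Lama3, Lama4, Lama5, Lamb1, Lamb3, Lamc1, Col4a1, Col4a2 and Hspg2, taken by gene symbol from the accession of each gene probe, out of 36799 genes or unnamed transcripts with a probe on the array. All 9 passed the filter on dim probes and were tested, with 22502 genes or transcripts tested in all. RANK, encoded by Tnfrsf11a, is the receptor activator of NF-kB. The tumor cells came from mice with the polyomavirus middle T oncogene under the MMTV promoter, which is active in mammary epithelium, on a C57BL/6 background, and were RANK+/+ or carried the constitutive RANK-/- deletion. Per the methods of the study, tumor cells mixed with Matrigel, itself a basement membrane extract, were placed in the mammary gland of syngeneic C57BL/6 females with intact RANK. Stroma and vessels from the host are therefore RANK+/+ in both groups. The sort was directed against leukocytes with an antibody to CD45 and left host fibroblasts, endothelium and pericytes in the fraction. Some leukocyte transcripts were still detected, as given below. Each array received 1 RNA of each genotype, and 3 pairs of RNAs were each run on 2 technical replicate arrays, A and B, so every value below has n = 3 pairs. Separate tumors behind the RNAs of 1 genotype are not stated in the labels, so p-values measure only the spread between these RNAs, which may be technical.

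The basement membrane is the sheet of extracellular matrix beneath epithelium and around vessels. Laminins are trimers of an alpha, a beta and a gamma chain that polymerize on the cell surface and bind integrins and dystroglycan. Collagen IV, a trimer mostly of alpha1 and alpha2 chains, forms a second network, and nidogens and the heparan sulfate proteoglycan perlecan join the networks. In the mammary gland the sheet lies against the myoepithelial layer, and its loss at some sites accompanies invasion of a carcinoma. The laminin that holds the alpha3 and beta3 chains anchors epithelial cells through hemidesmosomes, whereas laminins with alpha4 or alpha5, beta1 and gamma1 chains are found in vessels and many other tissues.

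The RANK probe went against the labels. In each of the 3 pairs the RNA labeled RANK-/- gave more Tnfrsf11a signal than its partner, with log2 ratios of 2.03, 1.15 and 1.76 (1.65 ± 0.45, SD, n = 3). Whether this probe lies outside the deleted part is not known from the sources used here, so it does not settle the labels. Every direction below is that of the channels as labeled, and log2 ratios above 0 mark more signal from the RNA labeled RANK-/-. Per the labels, pair 1 had the RANK-/- RNA in Cy5 on both arrays and pairs 2 and 3 had it in Cy3, so the dye arrangement of pair 1 and pair 1 itself cannot be told apart. Dye swaps for each sample are described in the study's methods but appear within no pair in the labels, which the ratios here follow. For the members, arrays A and B of a pair gave like ratios. All 9 genes were well above background on 6 of 6 arrays in both channels.

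Col4a1 and Col4a2 lie head to head on chromosome 8, and their start regions are shown because both genes had the same order of pair ratios. Lamc1 had that order too. Lamb1 had it only by a small margin between pairs 1 and 2, which on array A read 0.24 and 0.30, the other way round. For Col4a2 the ratios of pairs 2 and 3 were close, at -0.15 and -0.19. The share of all genes with this order was not counted, and a part of the start regions in the ratios was not tested. The windows are those of RefSeq in GRCm38.p6, 250 bases before to 50 after each start, in the direction of the gene, with the 78 bases common to both windows in capitals. The Col4a1 window is chr8:11312777-11313076 on the minus strand and the Col4a2 window is chr8:11312555-11312854 on the plus strand.
Col4a1: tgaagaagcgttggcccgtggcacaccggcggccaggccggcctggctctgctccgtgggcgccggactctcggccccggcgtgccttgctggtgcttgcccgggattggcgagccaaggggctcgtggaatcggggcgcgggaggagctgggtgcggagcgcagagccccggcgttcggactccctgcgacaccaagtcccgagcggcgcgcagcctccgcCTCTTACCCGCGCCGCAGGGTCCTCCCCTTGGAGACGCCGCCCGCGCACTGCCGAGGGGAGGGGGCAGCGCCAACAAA
Col4a2: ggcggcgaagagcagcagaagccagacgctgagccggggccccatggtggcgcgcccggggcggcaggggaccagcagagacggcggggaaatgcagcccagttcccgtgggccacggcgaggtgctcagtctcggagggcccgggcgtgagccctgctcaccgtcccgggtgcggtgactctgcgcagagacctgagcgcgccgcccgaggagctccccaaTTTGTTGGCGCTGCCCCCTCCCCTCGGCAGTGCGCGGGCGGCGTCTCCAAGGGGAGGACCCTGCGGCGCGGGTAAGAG
The capitals of one window are the reverse complement of those of the other, and the annotated starts are 21 bases apart. The shared stretch was 73.1% G or C, and the whole windows were 74.0% for Col4a1 and 73.7% for Col4a2, against a median of 52.7% over 32851 windows. The letters GGGCGG, searched on both strands, were found in the windows of 5 of the 6 members that had one (Lama5, Lamb1, Col4a1, Col4a2 and Hspg2) and in 35.7% of all windows, and 1 match lay in the shared stretch. CCAAT was found in 3 of 6 (Lamb1, Col4a1 and Col4a2) and in 37.4% of all windows. TATAAA was found in 0 of 6 and in 13.6% of all windows. A member was counted if any of its windows held the letters, whereas the percentages are shares of single windows. Nor were the windows matched for their share of G or C, so these counts and percentages are not like measures. Windows of 2 genes on opposite strands overlapped for 11.9% of the genes in the table, and Col4a1, Col4a2 and Lamb1 were among them.

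No member passed the test over all genes. With limma and Benjamini-Hochberg adjustment over the 22502 genes or transcripts, 0 of 9 members and 0% of all genes were called, and every member had an adjusted p of 1.00. At an unadjusted limma p under 0.05, 0 of 9 members and 2.88% of all genes were found (647 genes) in the reported setting. The median SD of the log2 ratio over pairs was 0.58 for the 9 members and 0.33 for all tested genes, a description with no test. This spread was not particular to the members. It was 0.86 for the other collagen IV chains, 0.75 for hemidesmosome proteins and 0.71 for other basement membrane proteins. For collagen IV modification and export it was 0.50, for the other laminin chains 0.49 and for the receptors 0.41. Technical arrays differed less. The largest difference between arrays A and B of a pair was 0.19, for Lama3, whereas the range over pairs ran from 0.86 for Lama3 to 1.64 for Col4a1. The median ratio of the members was 0.32 in pair 1, -0.03 in pair 2 and -0.19 in pair 3, against 0.02, -0.01 and 0.00 for all tested genes.

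**Figure D1:**
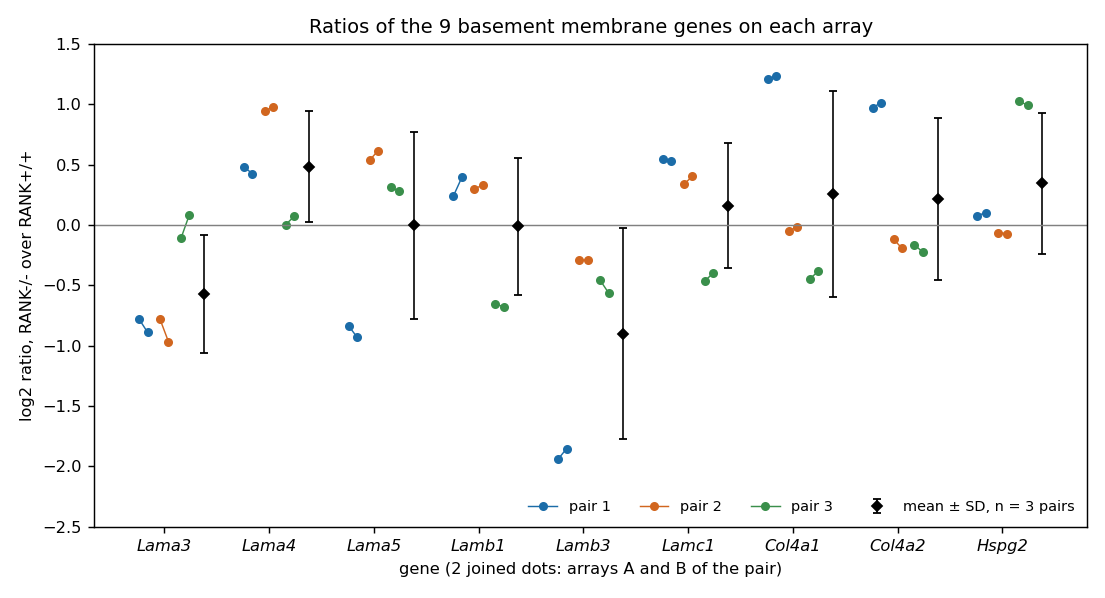
Log2 ratios of RANK-/- over RANK+/+ for the 9 genes on each array, with arrays A and B of a pair joined and the mean ± SD over 3 pairs in black. Arrays A and B lie close together, while pairs 1, 2 and 3 lie far apart for most genes, and Lamb3 has all its dots below 0.

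Lamb3 and Lama3, which encode the beta3 and alpha3 chains of the hemidesmosomal laminin, were the 2 members with a lower signal in RANK-/- in all 3 pairs. Over all tested genes, 9.65% were lower in all pairs. The normalized log2 signal of Lamb3 was 10.09, 10.84 and 10.90 in the RANK-/- RNAs of pairs 1 to 3, and 11.98, 11.14 and 11.40 in the RANK+/+ RNAs. All RANK-/- values thus lay below all RANK+/+ values, with the lowest RANK-/- value and the highest RANK+/+ value both in pair 1. The log2 ratios of Lamb3 were -1.90, -0.29 and -0.51 (-0.90 ± 0.87, SD, limma, adjusted p = 1.00). This is 3.72-fold lower in pair 1, 1.22-fold lower in pair 2 and 1.42-fold lower in pair 3, and without pair 1 the mean was -0.40. Lamb3 was lower in all 3 pairs under all 13 settings for which pair values were computed. These include the reported setting and changes of filter that left the member ratios as they were.

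Lama3 had normalized log2 signals of 7.62, 7.41 and 7.77 in the RANK-/- RNAs and of 8.46, 8.29 and 7.78 in the RANK+/+ RNAs. The groups did not overlap, but the margin was that of pair 3, whose RNAs were at nearly the same level. Its log2 ratios were -0.83, -0.87 and -0.01 (-0.57 ± 0.49, limma, adjusted p = 1.00), and the arrays of pair 3 gave -0.11 and 0.09. A second Lama3 probe, of lower intensity, read -1.69, -0.92 and 0.22. Lama3 was lower in all 3 pairs under 7 of the 13 settings, and its mean stayed below 0 in all of them. In all, 2 of 9 members, Lama3 and Lamb3, had groups that did not overlap, against 7.46% of all tested genes.

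Of the hemidesmosome proteins, 6 of 6 were tested and 0 passed the adjusted threshold. Col17a1, the transmembrane collagen of the hemidesmosome, had log2 ratios of -2.01, -2.13 and -0.21 and was lower in all pairs under all 13 settings (limma, adjusted p = 1.00). Itgb4, the integrin beta4 chain that binds this laminin, had the widest range of the list, with -2.03, 0.68 and -0.18. The rest of the list was mixed. Cd151, a tetraspanin that associates with laminin-binding integrins, was higher in all pairs with 0.27, 0.01 and 0.70. Dst had 1.32, -0.45 and 0.88, Itga6 had 0.26, -0.70 and -0.79, and Plec had -0.01, -0.01 and 0.71. The list median was 0.12, -0.23 and 0.26, and 1 of the 6 genes was lower and 1 higher in all pairs.

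**Figure D2:**
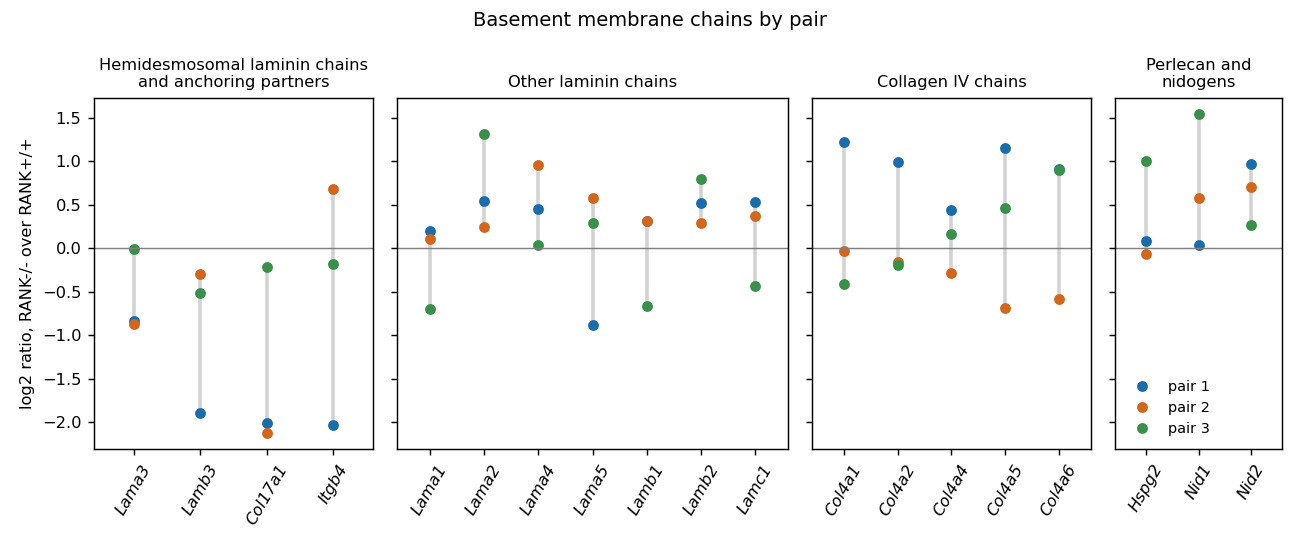
Log2 ratios of RANK-/- over RANK+/+ by pair for tested laminin and collagen IV chains, perlecan and nidogens, and for 2 anchoring proteins, with a grey bar for the range over pairs. Lamb3, Lama3 and Col17a1 have no dot above 0, Lama2 and Lamb2 have none below 0, and the collagen IV chains have their highest dot in pair 1.

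Lama4, the alpha4 chain of vascular and mesenchymal laminins, was the 1 member with a higher signal in RANK-/- in all 3 pairs, a pattern that 9.95% of all tested genes had. Its normalized log2 signals were 10.76, 11.40 and 11.18 in RANK-/- and 10.31, 10.44 and 11.14 in RANK+/+. The highest RANK+/+ RNA, of pair 3, exceeded the lowest RANK-/- RNA, of pair 1, so the groups overlapped. The log2 ratios were 0.45, 0.96 and 0.04 (0.48 ± 0.46, limma, adjusted p = 1.00). With each array centered on its median in place of intensity loess, the ratio of pair 3 was -0.57. In either direction, 3 of 9 members had 1 sign in all pairs, against 19.6% of all tested genes.

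Lama5, the alpha5 chain of epithelial and vascular laminins, had no common direction. The RANK-/- RNAs read 12.56, 13.21 and 13.02 and the RANK+/+ RNAs 13.44, 12.63 and 12.73 on the normalized log2 scale, so that pair 1 held both the highest RANK+/+ and the lowest RANK-/- value. The log2 ratios were -0.88, 0.58 and 0.30, with a mean near 0 and an SD of 0.77. Under median centering the ratio of pair 3 was -0.43.

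Lamb1 and Lamc1, the beta1 and gamma1 chains that most laminins share, had the most alike ratios of the 36 pairs of members. Lamb1 had log2 ratios of 0.32, 0.32 and -0.67 (-0.01 ± 0.57), and Lamc1 had 0.54, 0.37 and -0.43 (0.16 ± 0.52). Both were higher in RANK-/- in pairs 1 and 2 and lower in pair 3. Lamb1 minus Lamc1 was -0.22, -0.06 and -0.24, and the Euclidean distance over the 3 ratios was 0.33. Many other genes were nearer. Of all tested genes with a RefSeq symbol, Lamc1 was the 157th nearest to Lamb1, and Lamb1 the 120th nearest to Lamc1. Lamb1 signals were 12.69, 13.11 and 12.50 in RANK-/- and 12.37, 12.80 and 13.17 in RANK+/+, and the groups overlapped. Lamc1 signals were 11.81, 11.97 and 11.51 in RANK-/- and 11.27, 11.60 and 11.94 in RANK+/+, again with overlap.

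Col4a1 and Col4a2, which encode the chains of the common collagen IV trimer, were the next most alike pair, with a distance of 0.34. Col4a1 was measured by 10 spots of 1 probe. Its normalized log2 signals were 11.99, 11.48 and 11.40 in RANK-/- and 10.77, 11.51 and 11.82 in RANK+/+, and its log2 ratios were 1.22, -0.03 and -0.42 (0.26 ± 0.86). Col4a2 had signals of 11.79, 11.37 and 11.35 in RANK-/- and 10.79, 11.52 and 11.55 in RANK+/+, with log2 ratios of 0.99, -0.15 and -0.19 (0.21 ± 0.67). In pair 1 Col4a1 was 2.33-fold and Col4a2 1.99-fold higher in the channel labeled RANK-/-. The RANK+/+ RNA of pair 1 was the lowest of the 6 RNAs for both genes and its RANK-/- partner the highest. Without pair 1 the means were -0.22 for Col4a1 and -0.17 for Col4a2, so the sign of both rests on that pair. Among all tested genes with a RefSeq symbol, Col4a2 was the 27th nearest to Col4a1, and Col4a1 the 122nd nearest to Col4a2.

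Hspg2, which encodes perlecan, had its high ratio in pair 3. Its normalized log2 signals were 10.58, 10.34 and 11.18 in RANK-/- and 10.49, 10.40 and 10.17 in RANK+/+. Only the RANK-/- RNA of pair 3 stood apart, and the groups overlapped. The log2 ratios were 0.09, -0.07 and 1.01 (0.34 ± 0.58), so that pair 3 was 2.01-fold higher. A second Hspg2 probe of much lower intensity read -0.09, -0.08 and 0.19.

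**Figure D3:**
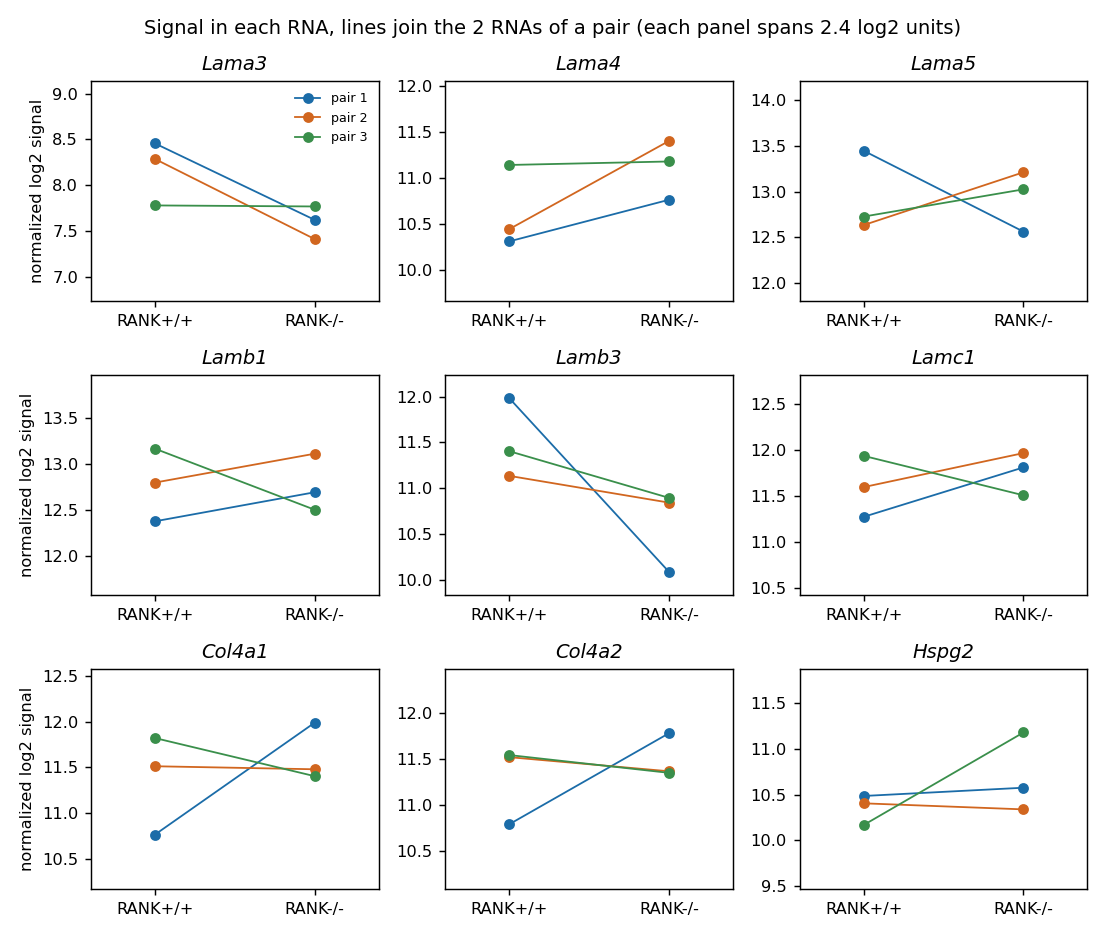
Normalized log2 signal of the 9 genes in each RNA, with a line joining the RANK+/+ and the RANK-/- RNA of a pair and 2.4 log2 units on every vertical axis. Lamb3 lines all slope down, Lamb1 and Lamc1 lines cross in the same way, and for Col4a1 and Col4a2 only pair 1 slopes up.

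Other chains and partners gave 0 calls at the adjusted limma threshold in every list. Of 4 other laminin chains, 3 were tested (Lamc3 did not pass the filter), and 2 of the 3 had an unadjusted limma p under 0.05, against 2.88% of all tested genes. In the other lists of partners this count was 2 of 15 other basement membrane proteins, 1 of 12 receptors, 1 of 6 hemidesmosome proteins, 0 of 11 genes for collagen IV modification and export and 0 of 3 collagen IV chains. Lama2, the alpha2 chain, had log2 ratios of 0.54, 0.24 and 1.32, and Lamb2, the beta2 chain, had 0.52, 0.29 and 0.79, both with an adjusted limma p of 1.00. Both were higher in RANK-/- in all 3 pairs under all 13 settings, and their groups did not overlap. Of the other collagen IV chains, 3 of 4 were tested. The median of these 3 was 0.91, -0.59 and 0.47 over the pairs, and the widest range was that of Col4a5, an X-linked chain, with 1.16, -0.69 and 0.47. Their high ratio in pair 1 is that of Col4a1 and Col4a2, but in pair 3 Col4a5 was higher and Col4a1 lower in RANK-/-, except that Col4a5 was at -0.15 there under median centering.

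Of the other basement membrane proteins, 15 of 16 were tested, 5 were higher in all pairs and 0 lower, against 9.95% and 9.65% of all tested genes, and the list median was 0.24, 0.15 and 0.27. Under median centering that median was 0.42, -0.07 and -0.19, so its sign turned in pairs 2 and 3. Nid1, a nidogen that links laminin to collagen IV, had log2 ratios of 0.03, 0.58 and 1.55. Smoc2, a secreted calcium-binding matrix protein, had 0.80, 0.23 and 2.15, and Frem2, a protein of the embryonic epithelial basement membrane, had the widest range with -0.40, 1.07 and -1.62. Nid1 was higher in all pairs under 11 of the 13 settings and Smoc2 under 12 of the 13. Of the genes for collagen IV modification and export, 11 of 11 were tested, 2 were higher and 1 lower in all pairs, and the list median was 0.01, 0.18 and 0.04. Plod1, a lysyl hydroxylase, had 0.20, 1.04 and 0.04, Loxl2, a lysyl oxidase that crosslinks collagen IV, had 0.01, 0.07 and 1.06, and Plod2, another lysyl hydroxylase, had the widest range with -0.18, 1.09 and -0.87. Loxl2 was higher in all pairs under 4 of the 13 settings and Plod1 under 11. P4ha2, the gene of this list that was lower in all pairs, had -0.83, -0.08 and -0.19 and was so under all 13.

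Of the laminin and collagen IV receptors, 12 of 13 were tested, 2 were higher and 1 lower in all pairs, and the list median was 0.05, -0.29 and 0.06. Sdc1, a cell surface proteoglycan of epithelium, had log2 ratios of -0.63, -0.40 and -0.88 (-0.64 ± 0.24, limma, adjusted p = 1.00) and was lower in all pairs under all 13 settings. Its groups overlapped. Cd151, which is also in this list, was higher in all pairs under 10 of the 13.

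Markers of the cell types that a CD45- fraction can hold also differed between the RNAs of a pair. In bulk RNA, fewer cells of a type and less RNA per cell cannot be told apart. The fibroblast markers had medians of 0.10, 0.85 and 1.94 in pairs 1 to 3, with 9 of 9 tested and 9 of 9 higher in pair 3. Their summed log2 level was 17.17 to 17.87 in RANK-/- and 15.74 to 17.20 in RANK+/+. Col1a2 had 0.61, 0.85 and 2.37, Col1a1 had 0.68, 0.30 and 1.94, and Dcn, which encodes decorin, had -0.71, 1.50 and 2.91. The ratios of Hspg2, Nid1, Lama2 and Smoc2 were also highest in pair 3, though the second Hspg2 probe read only 0.19 there. Those of Lama4, Lamb1, Lamc1, Col4a1 and Col4a2 were lowest in pair 3. The part of the fibroblast signal in these ratios was not tested. The pericyte markers had medians of 0.84, -0.66 and 0.61, with 6 of 6 tested, 6 higher in pair 1 and 0 higher in pair 2, and summed levels of 12.05 to 12.49 in RANK-/- and 11.19 to 12.70 in RANK+/+. Pdgfrb, the pericyte growth factor receptor, had 1.60, -1.03 and 0.76, beside ratios of Col4a1 and Col4a2 that were also highest in pair 1 but were not high in pair 3. The part of the pericyte signal in them was not tested.

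The endothelium markers had medians of 0.04, -0.07 and 0.56, with 10 of 11 tested (Erg did not pass the filter) and summed levels of 12.13 to 12.40 in RANK-/- and 11.79 to 12.32 in RANK+/+. Cldn5, a tight junction protein of endothelium, had 0.72, 0.14 and 0.81, and Cdh5, the endothelial cadherin, had 0.46, -1.01 and 0.56. The basal myoepithelium markers had medians of 0.17, -0.06 and 0.03, with 10 of 10 tested. Their summed levels were 14.99 to 15.27 in RANK-/- and 15.41 to 15.78 in RANK+/+, and did not overlap. Such sums weigh bright genes most and were not computed under other settings. The sums of the other laminin chains and of collagen IV modification and export did not overlap either, with RANK-/- higher. Within the basal list 7 of 10 markers were higher in pair 1, 4 in pair 2 and 5 in pair 3. Krt5, a basal keratin, had the widest range with -1.41, -2.13 and 0.33. Krt14 had -1.81, 0.12 and -0.44, and Krt17 had -1.66, 0.05 and -2.10. Oxtr, the oxytocin receptor of myoepithelium, was higher in all pairs with 1.84, 0.74 and 0.08. The part of the basal signal in the low Lama3 and Lamb3 ratios was not tested. The luminal epithelium markers had medians of 0.36, -0.51 and 0.73 (8 of 8 tested, summed levels of 17.43 to 18.91 in RANK-/- and 17.64 to 18.25 in RANK+/+), with the widest range for Krt19 at -1.22, -3.95 and 0.03. The leukocyte markers had medians of -0.26, 0.10 and 0.14 (7 of 9 tested, summed levels of 12.88 to 13.32 in RANK-/- and 12.83 to 13.13 in RANK+/+). Ptprc, which encodes CD45 itself, was above background on 5 arrays in RANK-/- and 4 in RANK+/+, Cd79a on 0, and the 4 adipocyte markers on 0. Csf1r, Itgam, Lyz2, Cd68 and Cd3e were above background on 6 arrays in both genotypes, and Laptm5 on 6 in RANK-/- and 4 in RANK+/+. Leukocyte transcripts were thus still detected in the fraction. Cd3e, a T cell receptor component, had 0.02, 0.20 and 0.01, and Laptm5 had -0.98, 0.59 and 0.26.

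**Figure D4:**
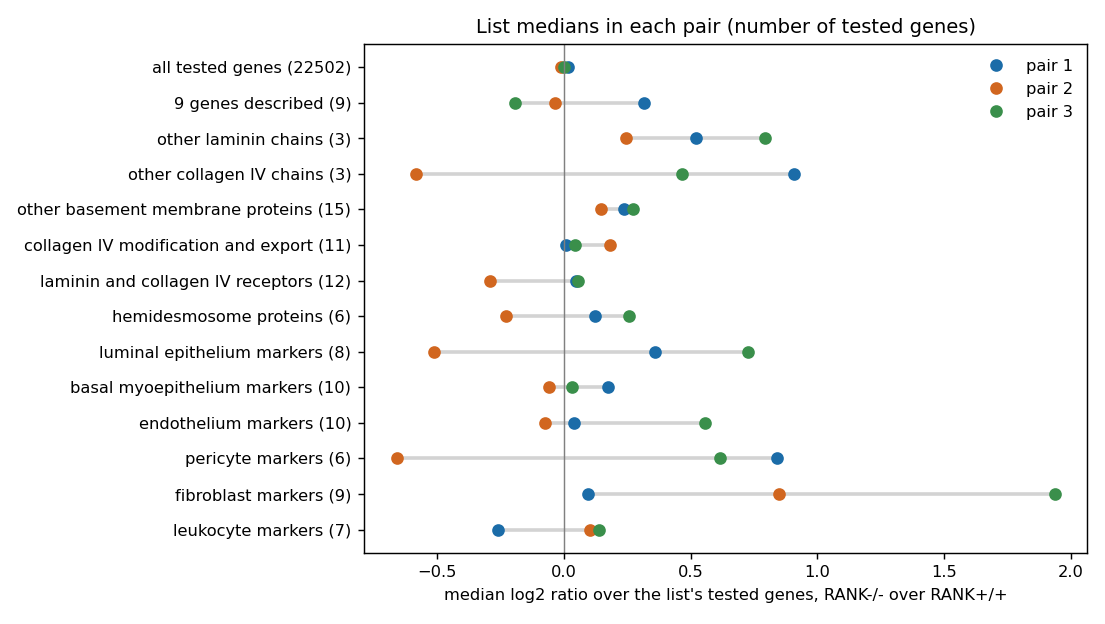
Median log2 ratio of RANK-/- over RANK+/+ in each pair for the 9 genes, the other lists and all tested genes, with the number of tested genes in brackets and a grey bar for the range over pairs. The all-gene median stays near 0, whereas the pericyte, fibroblast, luminal and collagen IV lists spread widely between pairs.

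For each member, the tested gene with a RefSeq symbol whose 3 pair ratios lay nearest by Euclidean distance was Cdkn2c for Lama3 (0.10), P3h2 for Lama4 (0.11), Krt7 for Lama5 (0.02), Tigar for Lamb1 (0.05), Pfkfb4 for Lamb3 (0.17), Ptprs for Lamc1 (0.06), Nrros for Col4a1 (0.05), Slc29a1 for Col4a2 (0.05) and Rsph9 for Hspg2 (0.04). With 3 pairs and 14672 such genes, near neighbors are abundant. For no member was the nearest gene another member.

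Without the intensity loess, most member ratios moved together within a pair. Under median centering the median of the 9 members was 0.57, -0.32 and -0.82 in pairs 1 to 3, against 0.32, -0.03 and -0.19 with loess. Pair 3 moved most, and Lama4 and Lama5 turned negative there, while Hspg2 kept a ratio of 0.42. The lists moved too. Under median centering the fibroblast markers had medians of 0.34, 0.29 and 1.13, the pericyte markers 1.03, -0.89 and 0.14, the endothelium markers 0.24, -0.29 and 0.27, the luminal epithelium markers 0.62, -0.99 and -0.12, and the basal myoepithelium markers 0.40, -0.36 and -0.49. The luminal and basal medians thus turned sign in pair 3. The medians of the receptors (0.24, -0.53 and -0.52), of the hemidesmosome proteins (0.38, -0.55 and -0.40), of collagen IV modification and export (0.24, 0.02 and -0.50) and of the other collagen IV chains (1.14, -0.85 and -0.01) turned sign in pair 3 as well. The leukocyte markers had -0.05, -0.02 and 0.03, with the sign turned in pair 2.

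**Figure D5:**
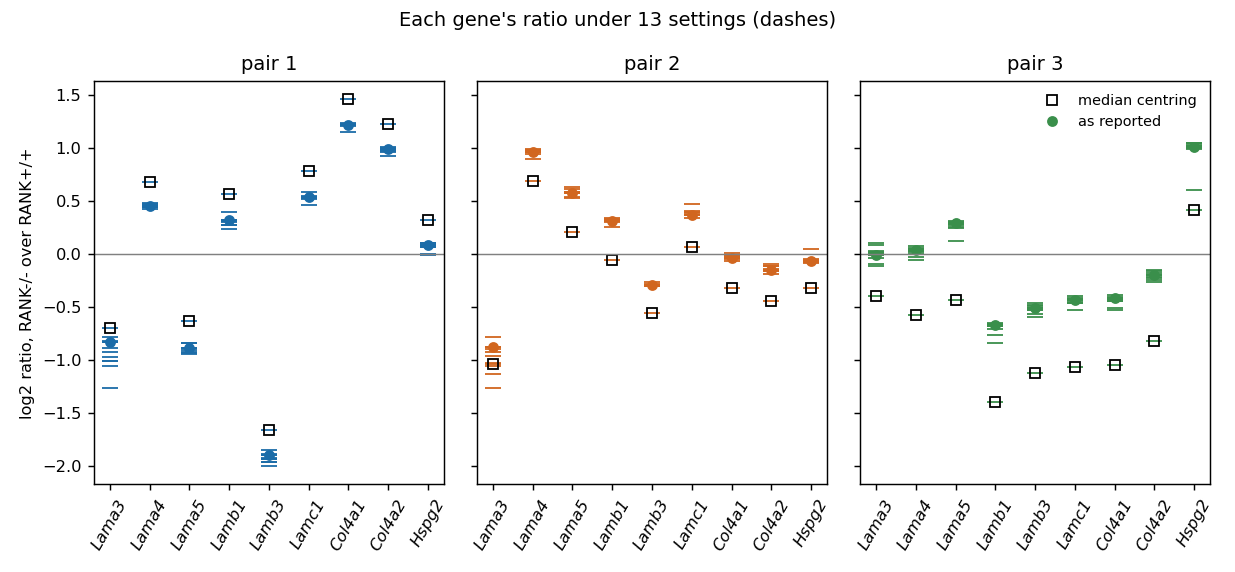
Log2 ratio of RANK-/- over RANK+/+ of the 9 genes in pairs 1, 2 and 3 under 13 settings (dashes), with the reported setting as filled dots and median centering as open squares. For most genes the median-centered square lies above the other settings in pair 1 and below them in pairs 2 and 3, and Lamb3 is below 0 in every panel.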

How the data were processed

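The authors hybridized Cy5- and Cy3-labeled RNA to 6 SurePrint G3 mouse arrays and extracted spots with Feature Extraction 10.7.3.1, as named in the file headers. The deposited scanner tables hold median spot and background intensity in both channels, not normalized, and processed intensity values. A series-wide file gives the authors' normalized log2 ratios, with neither direction nor centering stated. Correlation with the scanner values across spots, which are not independent, put RANK-/- in the numerator for all arrays (r of 0.77 to 0.95). Column medians were -0.0076 to 0.0073, and the members' ratios had a slope of 1.04 on the ones computed here.

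Here, median signals were background-corrected by normexp (offset 50), normalized by intensity loess within arrays and Aquantile between arrays (limma 3.58.1, R 4.3.3, data.table version 1.17.8), without control and outlier spots (212 to 260 outliers per array, 0 saturated spots). Median signals stood in for mean signals. Each probe was averaged over its spots, turned to log2 RANK-/- over RANK+/+, and averaged over arrays A and B. Probes were kept where 1 genotype was flagged well above background on arrays A and B in 2 or more pairs (30230 of 55681), and the brightest stood for its gene. Intercept-only limma fits (lmFit, eBayes, two-sided) over 22502 genes or transcripts used Benjamini-Hochberg adjustment and a threshold of 0.05. The smallest p an exact sign-flip test can give with 3 pairs is 0.25. The number of RNA pairs limits the precision. Symbols came from RefSeq (GRCm38.p6) by accession, for 28026 probes, and the files name another build. The study's rank product draws random ranks, so its exact distribution was used as an alternative. All arrays shared 1 slide and scan date, so neither could be tested as a batch. The fit was tested on simulated data with changes larger than any member's mean ratio. That test cannot show whether changes of the members' size would be found.

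The members, lists and rules were chosen with earlier results of these data known. Named were Tnfrsf11a, all members, and in each list any gene past the threshold or else up to 2 genes with 1 sign in all pairs by largest mean, plus the gene of widest range, and the nearest gene of each member. Some further listed genes are named beside these. Lists covered other laminin and collagen IV chains, other basement membrane proteins, collagen IV modification and export, receptors, hemidesmosome proteins and markers of luminal and basal epithelium, endothelium, pericytes, fibroblasts, adipocytes and leukocytes. A single listed gene was left out of the list counts and is not reported here.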

Additional observations from a re-analysis of the deposited data

How the results depend on the processing

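Under 21 alternative settings, 0 members passed the adjusted threshold in all of them, the exact rank product included. The number of genes called was 0 in 18 of the 21, and was 298 with the 6 arrays as separate replicates, 13 with the pair as a random block and 22 by the rank product. It was 0 without each replicate in turn. With no replicate block, that is with channels as 3 samples of each genotype, 0 genes and 0 members were called. Dropping the pairing thus changed no call at the adjusted threshold. The unadjusted limma p then fell to 0.031 for Lama3 and 0.023 for Lamb3, with 826 genes under 0.05. Under median centering it was 0.027 for Lama3 and 0.013 for Lamb3, with 521 genes under 0.05. Some other settings also took members under 0.05. Deviations of the 2 RNAs of a pair from their genotype means correlated at -0.034, -0.22 and -0.041 across genes.

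Neither change of filter altered a member's ratios. The number of members with 1 sign in all 3 pairs stayed at 3 under 4 of the 12 alternatives run for it (array A alone, no filter, the stricter filter and spatial loess). It was 2 under 7 (both other offsets, no background subtraction, median centering, Agilent's processed signals, array B alone and the mean over probes) and 1 in the authors' series table, where Lama3 and Lama4 in pair 3 had the sign opposite to pairs 1 and 2. The number of members whose groups did not overlap was 1 with normexp offset 0, offset 16 or no background subtraction (Lamb3) and 1 with Agilent's processed signals (Lama3). These were added after seeing the data, except median centering, which gave 2.

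The means of Lamb3, Lama3, Lama4 and Hspg2 kept their sign under all 20 alternatives run for them. Several of these left the means unchanged and so could not turn a sign. They were the 6 arrays as separate replicates, the random block, no replicate block, a robust fit of the variance and both changes of filter. Without each replicate in turn, the mean log2 ratio ranged from -1.20 to -0.40 for Lamb3, -0.85 to -0.42 for Lama3, 0.25 to 0.71 for Lama4, -0.29 to 0.44 for Lama5, -0.18 to 0.32 for Lamb1, -0.029 to 0.45 for Lamc1, -0.22 to 0.59 for Col4a1, -0.17 to 0.42 for Col4a2 and 0.01 to 0.55 for Hspg2. The sign turned for Col4a2 (-0.0090) and Lamc1 (-0.072) under median centering, for Lama5 with array A alone (0.0041), no background subtraction (0.0015) and spatial loess (0.0038), and for Lamb1 with array B alone (0.015) and the dye term (0.071). Apart from the replicates left out, the cause was not tested. All 9 members were well above background. Lama3 had ratios of -1.06, -1.13 and 0.03 with normexp offset 0.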
